A study of Salmo salar with 64 samples.

Results

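The 200 genes described here are those whose counts lay almost wholly in the liver of maturing female Atlantic salmon. They were chosen by measured levels, not by function. Counts were divided by each library's total and given per 1000000 counts (CPM), and an entry was kept when its mean over the 16 liver libraries was at least 20 times its mean in brain, in pituitary and in ovary. After 5 entries had been set aside, the 200 with the highest liver mean were taken. They are 200 of 81574 annotated entries, of 48549 with at least 1 count in any library, and of 861 that passed the ratio after the 5 were set aside. Since the levels in the tissues chose the genes, those levels are given as a description. The change over time within liver was tested, although the rule's liver mean spanned all time points.

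The liver makes most of the proteins of blood plasma, among them albumin, transferrin, clotting factors, complement and apolipoproteins. It also breaks down amino acids and handles fat. In a female fish that starts to mature, oestrogen from the ovary reaches the liver, which then makes egg yolk precursors and egg envelope proteins for the growing oocytes. These genes were followed to see how the liver's own repertoire stood before and after the start of maturation.

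The study sampled female brood stock from 1 management group. The fish were about 36 months after fertilization in April, and T1 was sampled in mid-June of that year. A long-day light regime, used to set off maturation in farmed fish, began after the first sampling. T1 fish were killed just before the regime, and T2, T3 and T4 fish followed at intervals of 2 weeks under long days. Brain, pituitary, ovary and liver gave 64 messenger RNA libraries, 4 per tissue and time point. Each time point had its own 4 fish, labelled as biological replicates, and no fish was followed over time. All fish taken after T1 were under long days, so light regime, elapsed time and age cannot be told apart. Whole liver pieces were sequenced, and in such bulk samples fewer cells of a type and less RNA per cell cannot be told apart.

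The liver libraries held 20638203 to 34934085 counts. Those of T4 were the deepest, with 33498325 ± 1005968 counts at T4 against 22107824 ± 1059948 at T1 (SD, n = 4 each). Several libraries stood apart. The summed CPM of 7 leukocyte markers was 1773 and 1739 in T4 replicates 1 and 2, where the other 14 liver libraries held 248 to 438. T2 replicate 1 held 970 CPM of 6 endothelial, stellate and fibroblast markers, against 132 to 333 elsewhere. At T2 this sum was mostly collagen, with means of 261 CPM for col1a1b and 105 CPM for col1a1a. No other marker of that list had a T2 mean above 7.41 CPM. The sum of 2 biliary markers was 412 CPM in T2 replicate 1, against 231 to 296 elsewhere. This library was the lowest of all 16 for 83 members, on the scale used below. T2 replicate 3 differed by over 2-fold from the median of the other 3 T2 libraries for 36 members. Markers of other tissues were scarce, since 6 pancreas markers summed to at most 1.52 CPM, 6 oocyte markers to at most 8.09 CPM and 3 skeletal muscle markers to at most 0.0448 CPM. The part of such differences in the results below was not tested, but the counts of calls were also taken without these libraries. Libraries of T4 resembled each other in pairs, since only 32 genes differed by over 4-fold between replicates 1 and 2 and 93 between replicates 3 and 4, while at least 135 did in each of the other 22 pairs within a time point. Both pairs differed by more than counting noise, which does not show separate fish. The labels give 4 replicates, so n = 4 was kept for T4. If the members of a pair shared a fish, n would be 2 and the errors and p-values given for T4 would be too small. With each pair summed, 21 members were called at T4, among them 9 of the 9 called higher and 11 of the 13 called lower with n = 4.

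The members held a large part of the liver's counts at every time point. Their share of the library was 46.6 ± 1.15% at T1, 44.6 ± 3.65% at T2, 47.2 ± 2.30% at T3 and 44.6 ± 1.36% at T4 (SD, n = 4 each). The 16 values ran from 40.1% to 50.4%, and the ranges of the 4 time points overlapped. The 10 members with the highest means alone held 17.8 ± 0.847% at T1 and 16.3 ± 0.857% at T4. In the other tissues the 200 genes together had median shares of 0.184% in brain, 0.187% in pituitary and 0.132% in ovary. The highest share in any of those 48 libraries was 0.320%.

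**Figure D1:**
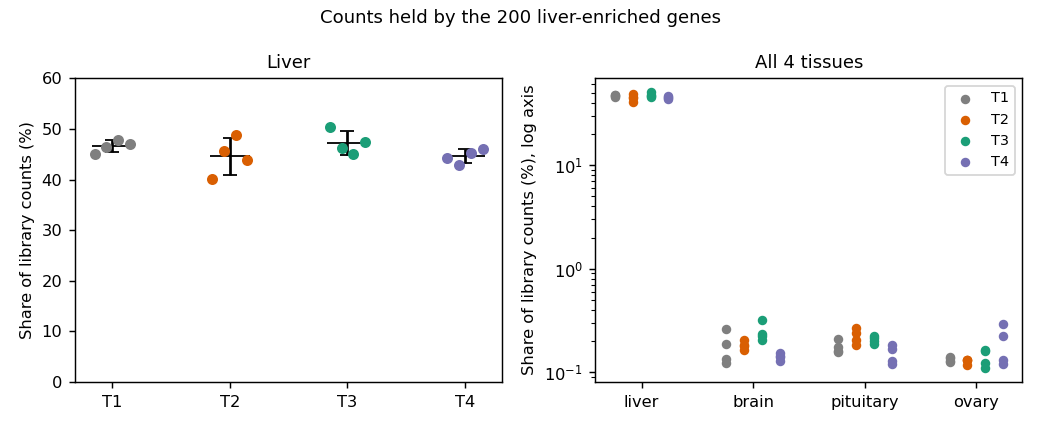
Share of each library's counts held by the 200 liver-enriched genes. The left panel shows the 4 liver libraries of each time point as points with the mean and SD, and the right panel shows all 4 tissues on a log axis. The liver libraries lay between 40.1% and 50.4%, while no library of another tissue passed 0.320%.

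Liver means of the members ran from 258 to 27040 CPM with a median of 823 CPM. These values are not divided by gene length, so their order is not an order of transcript numbers. The ratio of the liver mean to the next tissue had a median of 448 and ran from 20.2 to 653. The next tissue was brain for 126 members, ovary for 53 and pituitary for 21. The study itself set its brain samples aside, since their replicates disagreed and the brain regions taken were not constant. Many ratios lay near the top of the range. The oocyte marker zpax1 stood in the reverse relation, with means of 1.73 CPM in liver and 1052 CPM in ovary. Whether such low levels are expression in the tissue itself was not tested. At the lower end of the level the gene numbered 106560507 (260 CPM) and LOC106609923 (258 CPM) were kept, while vtnb, a vitronectin gene (257 CPM), and LOC106582772 (252 CPM) were not. At the lower end of the ratio apoc1 (20.2) and LOC106582765 (23.6) were kept, while the gene numbered 106574791 (19.6) and slc31a1 (19.5) were not. Of the members, 185 are protein coding in RefSeq's gene table for assembly Ssal_v3.1 and 9 are not in that table. Only 76 carry a symbol or a gene description, so 124 are named by their number alone and no function is given for them.

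At each later time point most members did not change past the threshold against T1, and neither did most of all genes tested. In all, 157 of the 200 members passed the threshold at none, and the same count over all genes was not taken. Between its highest and lowest time point mean, a member's log2 range had a median of 0.71. Only 51 members had a range under 0.5, so a missed threshold does not mean an unchanged level. A gene was called when its Benjamini-Hochberg adjusted p, over all genes tested, was below 0.05 and its absolute log2 fold change against T1 was above 1. At T2 the test called 31 of the 200 members (15.5%), 13 higher and 18 lower, where 14.9% of all 25419 genes tested were called, 8.21% higher and 6.65% lower. At T3 it called 18 members (9%), 16 higher and 2 lower, against a background of 7.49% called, 4.09% higher and 3.39% lower. At T4 it called 22 members (11%), 9 higher and 13 lower, and the background was 11% called, 5.75% higher and 5.21% lower. The shares at T2 and T4 were thus near those of all genes. All 200 members passed the filter on low counts in each comparison. The 3 comparisons share the T1 libraries.

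With the adjusted p alone, 77 members passed at T2 (38.5%, background 33.5%), 67 at T3 (33.5%, background 19.5%) and 87 at T4 (43.5%, background 32.4%). All 4 later libraries lay on 1 side of all T1 libraries for 77 members at T2 (background 34%), 67 at T3 (background 24.1%) and 97 at T4 (background 33.7%). The median log2 fold change of the members was -0.17 at T2, 0.01 at T3 and -0.27 at T4, beside -0.00, -0.01 and 0.06 over all genes. A test of any difference over the 4 time points passed for 97 members (48.5%, background 39.6%). The background was all genes tested, many at lower levels where the test has less power. The part of level in these differences was not tested. The mean level was highest at T1 for 89 members and at T3 for 73, and at T2 or T4 for the other 38. It was lowest at T1 for 60, at T2 for 70, at T3 for 6 and at T4 for 64. Neither was counted over all genes, so these numbers have no background.

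The T2 and T4 calls leaned on individual fish. T2 replicate 3 was the lowest of the 4 T2 libraries for 10 of the 13 members called higher, and the highest for 15 of the 18 called lower, so that it lay nearest to T1 in most of them. T2 replicate 1 was the lowest for 14 of those 18. Without replicate 3, 39 members were called at T2 (16 higher, 23 lower), without replicate 1, 25 (16 higher, 9 lower), and without both, 33 (18 higher, 15 lower). Without T1 replicate 3 the T2 calls were 16 higher and 11 lower. T4 replicate 4 was the highest of the 4 T4 libraries for 12 of the 13 members called lower. T4 replicate 3 was the highest for 8 of the 9 called higher, and T4 replicate 2 the lowest for 6. At T4, 17 members were called without replicates 1 and 2 (11 higher, 6 lower), and 33 without replicate 4 (11 higher, 22 lower). Of the members called with all libraries, all 13 higher and 9 of the 18 lower calls at T2 held without T2 replicate 1. Without T2 replicates 1 and 3, all 13 higher and 14 of the 18 lower calls held. All 9 higher and 6 of the 13 lower calls at T4 held without T4 replicates 1 and 2. The 2 members called lower at T3 became 4 without T1 replicate 2 or without T3 replicate 1. The direction of the calls also depended on the rule, and a rule on T1 levels favours genes that later fell. When the liver mean of the rule came from the 4 T1 libraries only, 178 of the members stayed, among them all 25 called lower at any time point but 7 of the 18 called higher. The other 11 were members through the time points at which they were high, so their rises are not independent of the rule. The calls were then 3 higher and 26 lower at T2 and 6 higher and 7 lower at T3. At T4 they were 2 higher and 19 lower. Falls are not independent of the main rule either, since its liver mean held the T1 libraries. After T1, LOC106587398, LOC100136448, tdo2a, nme4 and LOC106590538 lay under the lowest kept mean of 258 CPM in most libraries. They were members partly for being high at T1.

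**Figure D2:**
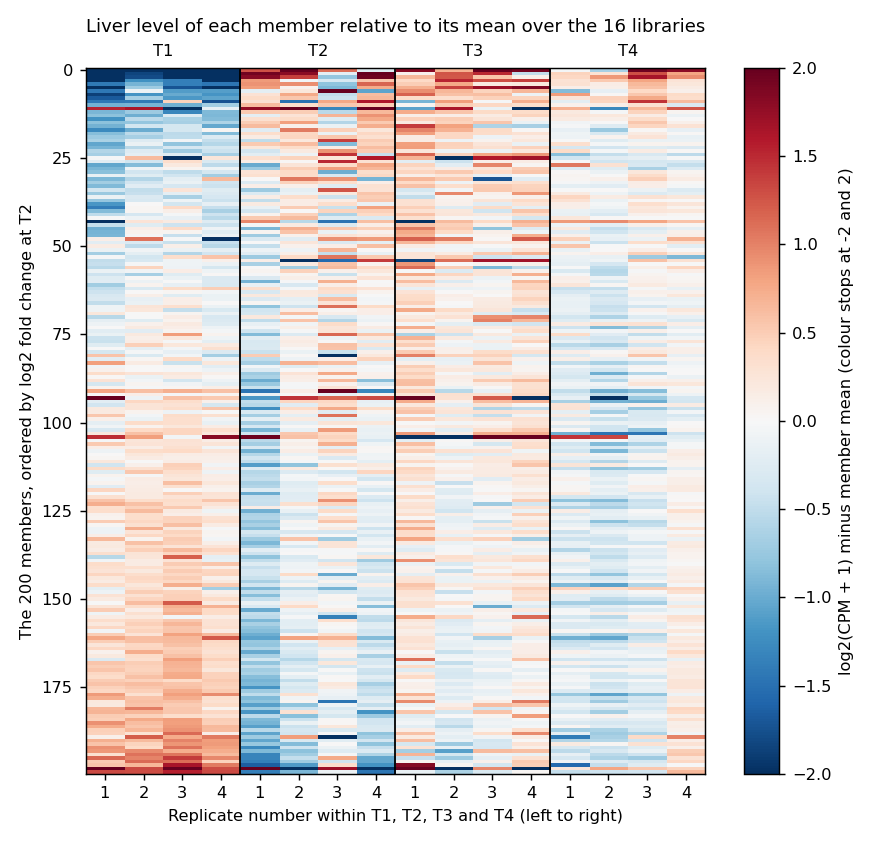
Level of each of the 200 members (rows, ordered by log2 fold change at T2) in the 16 liver libraries (columns, replicates 1 to 4 of T1, T2, T3 and T4). Colour gives log2(CPM + 1) minus the member's mean over the 16 libraries, with colours ending at -2 and 2. Most rows (157) were called at no later time point, the rows at the top are low in all T1 libraries, and T2 replicate 1 is the lowest library for 83 rows.

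A total of 157 members were called at none of the 3 later time points, 26 at 1, 6 at 2 and 11 at all 3. No member was called in opposite directions. The 3 comparisons share the T1 libraries, which by itself favours calls in 1 direction, and these counts were not taken over all genes. Of the 11, 9 were higher and 2 were lower throughout. Members given in full below were fixed by a rule on liver mean, size of change and function list, and those that it did not take were chosen after their values were seen, such as thrsp, uox and LOC106571137, which complete the 9. Levels below are CPM on TMM-scaled totals, which correct library size for unequal composition, with the 4 libraries of a time point in replicate order. Log2 fold changes are later time point over T1 and stand with their standard error after ±.

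The rises included genes of fat synthesis, methyl group and urate metabolism. Of the 9 members higher throughout, only thrsp and uox were also members by T1 levels. The other 7 were chosen partly for being high later, so their tests stand as a description. thrsp, a gene known in mammals to promote fat synthesis in liver, had 3252, 3706, 2469 and 3333 CPM at T1, 8783, 8639, 4205 and 9589.5 at T2, 10250.5, 8978, 7993 and 7903 at T3 and 7037, 6054, 8356 and 6391 at T4. Every later library was above every T1 library, although T2 replicate 3 came close. The log2 fold change was 1.27 ± 0.26 (adjusted p = 0.00471) at T2, 1.44 ± 0.15 (adjusted p = 0.000261) at T3 and 1.12 ± 0.18 (adjusted p = 0.00241) at T4.

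bhmt encodes betaine-homocysteine methyltransferase, which remakes methionine from homocysteine. It had 603, 2189.6, 1086 and 686 CPM at T1, 6433, 3795, 1919 and 6036 at T2, 5868, 9121, 11724 and 13084 at T3 and 3941, 3888, 5412 and 4005 at T4. T2 overlapped T1 through replicate 3, whereas T3 and T4 did not. Its log2 fold change was 1.97 ± 0.50 (adjusted p = 0.0158) at T2, 3.10 ± 0.47 (adjusted p = 0.00339) at T3 and 1.92 ± 0.39 (adjusted p = 0.00714) at T4. The gene of urate oxidase, uox, which degrades uric acid, had 189, 384, 275 and 294 CPM at T1, 801, 887, 453 and 966 at T2, 788, 771, 841 and 831 at T3 and 727, 843, 1032 and 782 at T4. No later library fell into the T1 range. Its log2 fold changes were 1.43 ± 0.28 (adjusted p = 0.00396), 1.48 ± 0.19 (adjusted p = 0.000732) and 1.57 ± 0.22 (adjusted p = 0.00177) at T2, T3 and T4.

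The largest rise belonged to LOC106611534, which has no annotated name. It had 7.22, 8.85, 4.49 and 7.48 CPM at T1, 279, 1294, 249.9 and 96.9 at T2, 403, 188, 642 and 433 at T3 and 111, 71.9, 443 and 399 at T4. The later libraries varied widely but all exceeded T1 by several-fold. The log2 fold change was 6.08 ± 0.84 (adjusted p = 0.000937) at T2, 5.87 ± 0.42 (adjusted p = 0.000149) at T3 and 5.19 ± 0.67 (adjusted p = 0.00184) at T4. Its T1 level was the lowest of any member.

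LOC106603271 had 151, 418, 145 and 264 CPM at T1, 5111, 3777, 839 and 5542 at T2, 2251, 3401, 2130.3 and 1550 at T3 and 1920.3, 2639, 4547 and 2735 at T4. LOC106611586 had 76.7, 178, 63.2 and 88.2 CPM at T1, 2417, 2226, 558 and 3086 at T2, 673, 1520.3, 1805 and 452 at T3 and 862, 776, 1560.2 and 1095 at T4. In both, each later library was above all of T1, and T2 replicate 3 was the lowest of T2. The log2 fold changes of LOC106603271 were 3.95 ± 0.62 (adjusted p = 0.0017) at T2, 3.24 ± 0.40 (adjusted p = 0.00127) at T3 and 3.60 ± 0.42 (adjusted p = 0.00119) at T4. Those of LOC106611586 were 4.33 ± 0.57 (adjusted p = 0.000772), 3.44 ± 0.55 (adjusted p = 0.00442) and 3.40 ± 0.38 (adjusted p = 0.00102).

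LOC106577245 had 39.2, 128, 116 and 72.8 CPM at T1, 544, 289, 239 and 442 at T2, 394, 863, 732 and 786 at T3 and 366, 431, 516 and 363 at T4. No later library overlapped T1, and the log2 fold change was 2.07 ± 0.40 (adjusted p = 0.00464) at T2, 2.95 ± 0.40 (adjusted p = 0.00182) at T3 and 2.24 ± 0.34 (adjusted p = 0.00252) at T4. LOC106580183 had 267, 374, 277 and 263 CPM at T1, 1342, 1368, 410.1 and 1601 at T2, 1010.4, 1211, 812 and 826 at T3 and 884, 793, 1116 and 834 at T4. T2 replicate 3 stood just above the highest T1 library. The log2 fold change was 1.98 ± 0.37 (adjusted p = 0.00365) at T2, 1.69 ± 0.17 (adjusted p = 0.000269) at T3 and 1.62 ± 0.17 (adjusted p = 0.000773) at T4. The ninth of these genes, LOC106571137, had log2 fold changes of 1.63, 1.90 and 1.75, again with no overlap.

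**Figure D3:**
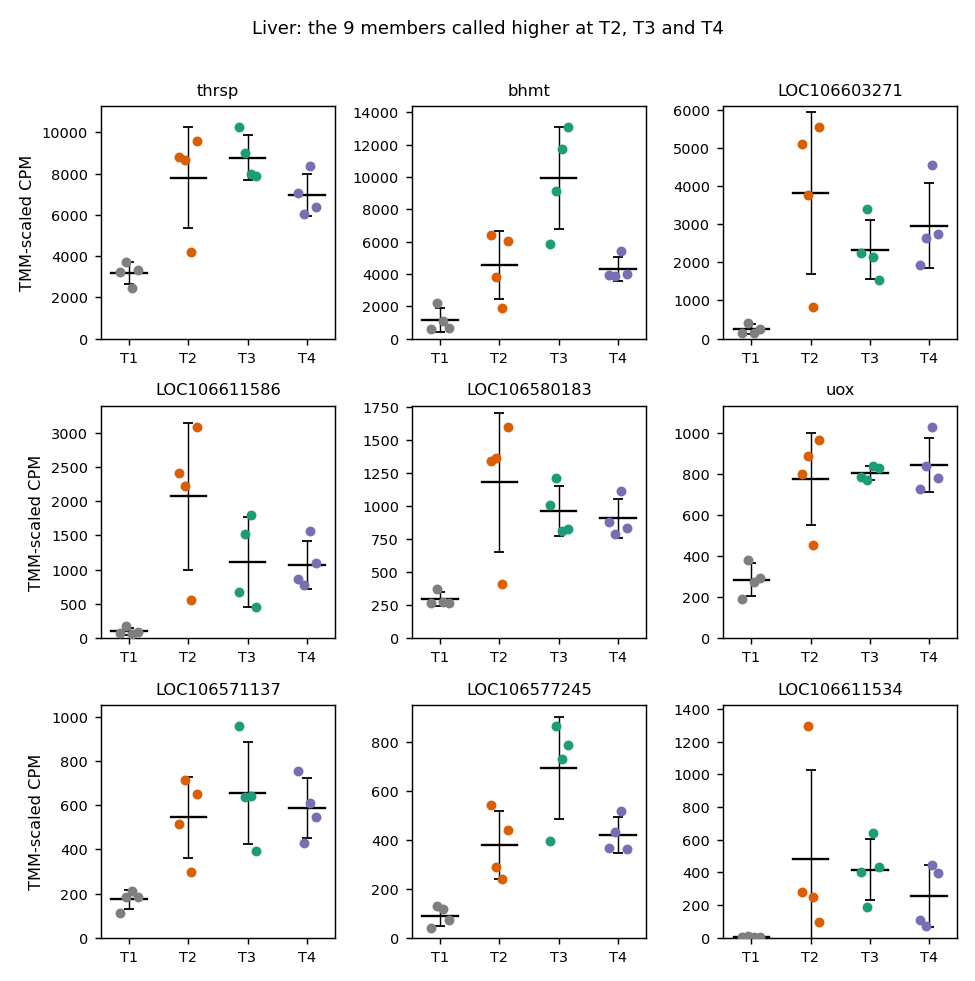
TMM-scaled CPM of the 9 members called higher than T1 at T2, T3 and T4. Each point is 1 liver library, black bars are means, error bars are SD (n = 4, cut off at 0 CPM) and each panel has its own axis from 0. In all panels but that of bhmt, no later library reaches down to the T1 range, and T2 replicate 3 (the third T2 point from the left) is the lowest T2 library in most.

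Other members rose at 1 or 2 time points, and of these only elovl5 and cyp2x9 were named by the rule. By T1 levels, pnp4b, zgc:113516, elovl5 and cyp2x9 were not members, so their tests stand as a description too. pnp4b, a purine nucleoside phosphorylase gene, was higher at T2 (1.38 ± 0.13, adjusted p = 0.000222) and T3 (1.21 ± 0.13, adjusted p = 0.000355), and zgc:113516 was higher at T2 (1.12) and T3 (1.11). Both had no overlap with T1 at T4 either, with log2 fold changes of 0.96 and 0.96 that stayed under the fold threshold. elovl5, which lengthens polyunsaturated fatty acids, had 152, 158, 171 and 175 CPM at T1, 379.9, 479.9, 179 and 391 at T2, 308, 370.4, 399 and 247 at T3 and 256, 268, 393 and 290.2 at T4. It was called at T2 (1.11 ± 0.26, adjusted p = 0.00937), and without T2 replicate 2 its log2 fold change of 0.94 was under the threshold. T3 (1.00 ± 0.15, adjusted p = 0.00194) lay just under the fold threshold, and T4 (0.88 ± 0.15, adjusted p = 0.00368) passed the adjusted p only.

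At T3 the acute phase gene crp, for C-reactive protein, was called (1.15 ± 0.15, adjusted p = 0.000898), and its values lay above all of T1 at T2 (0.95) and T4 (0.64) as well. cyp2x9, a cytochrome P450 gene of fish, had 317, 409, 477 and 473 CPM at T1, 705, 779, 673 and 923 at T2, 1074, 822, 753 and 834 at T3 and 480.1, 464, 508 and 496 at T4. T2 and T3 lay above T1, and T4 overlapped it. It was called at T3 (1.04 ± 0.16, adjusted p = 0.002), which without T1 replicate 1 or T3 replicate 1 was 0.93 and no longer called. LOC106605692 (1.25), LOC106577505 (1.51) and si:dkey-22f5.9 (1.11) were also called at T3 only, and LOC106569441 (1.17) at T2 only.

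Among the genes that fell were albumin, an inhibitor of clotting and an enzyme of tryptophan breakdown. alb2 encodes albumin, the main carrier protein of plasma. It had 24609.5, 23371, 29877 and 26831 CPM at T1, 7266, 12214, 12936 and 11552 at T2, 23007, 13981, 11597 and 15109 at T3 and 9968, 10150.4, 11567 and 16458 at T4. All 12 later libraries were below the 4 of T1. It was called at T2 (-1.27 ± 0.19, adjusted p = 0.00124) and T4 (-1.12 ± 0.20, adjusted p = 0.00368) and passed the adjusted p alone at T3 (-0.73 ± 0.19, adjusted p = 0.023). With limma on the deposited log2 values neither call held, with adjusted p = 0.421 at T2 and 0.466 at T4, and without T4 replicates 1 and 2 its T4 log2 fold change was -0.89. The gene numbered 100136922, without an entry in the symbol table, had -1.35 at T2, -0.84 at T3 and -1.03 at T4, and was called lower at T2 and T4 too, although it was -0.87 and not called at T4 without replicates 1 and 2.

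tdo2a encodes tryptophan 2,3-dioxygenase, the first step of tryptophan breakdown in liver. It had 369, 395, 783 and 514 CPM at T1, 78.9, 114, 320.2 and 108 at T2, 898, 259.7, 194 and 353 at T3 and 84.1, 180.1, 211 and 248 at T4. T2 and T4 lay below T1, while T3 spread across it. It was called lower at T2 (-1.75 ± 0.46, adjusted p = 0.0172) and T4 (-1.51 ± 0.35, adjusted p = 0.012) and not at T3 (-0.29 ± 0.48, adjusted p = 0.72). The T2 call was lost without T2 replicate 2 (adjusted p = 0.0514) or replicate 4 (adjusted p = 0.0507). nme4, a nucleoside diphosphate kinase gene, had 345, 536, 529 and 335 CPM at T1, 93.2, 148, 185 and 119 at T2, 256, 217, 260.4 and 349.5 at T3 and 231, 202, 190 and 322 at T4. It was called at T2 (-1.70 ± 0.25, adjusted p = 0.00108), with smaller values at T3 (-0.70) and T4 (-0.88). High T1 levels helped to make tdo2a and nme4 members, so their tests stand as a description.

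The 2 members lower at all 3 time points have no annotated name. Both were members partly for being high at T1, so their tests stand as a description. LOC106587398 had 806, 797, 945 and 805 CPM at T1, 124, 169.8, 296 and 115 at T2, 289.9, 206, 258 and 331 at T3 and 231, 240.2, 246 and 501 at T4. The groups did not overlap, and the log2 fold change was -2.26 ± 0.29 (adjusted p = 0.000594) at T2, -1.64 ± 0.15 (adjusted p = 0.000195) at T3 and -1.46 ± 0.26 (adjusted p = 0.00364) at T4. LOC100136448 had 619.8, 553, 736 and 543 CPM at T1, 111, 201, 472 and 136 at T2, 201, 171, 247 and 345 at T3 and 220.4, 181, 168 and 339 at T4. Its log2 fold change was -1.43 ± 0.42 (adjusted p = 0.0281) at T2, -1.36 ± 0.21 (adjusted p = 0.00188) at T3 and -1.43 ± 0.23 (adjusted p = 0.00269) at T4. The T2 call did not hold without T1 replicate 1 or 3, or without T2 replicate 1, 2 or 4, where the adjusted p was 0.0504 to 0.0735, nor with no filter on low counts (adjusted p = 0.0647). Without T2 replicates 1 and 3 together the call held (-1.85, adjusted p = 0.000319).

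LOC106585699 was called at T2 only (-1.43 ± 0.28, adjusted p = 0.00411) and LOC106607754 at T4 only (-1.38 ± 0.23, adjusted p = 0.00329). LOC106590538 had the lowest log2 fold change of any member at T4, and its level varied widely between fish of 1 time point. It had 1606, 220, 1144 and 218 CPM at T1, 521, 3.16, 285 and 1.52 at T2, 490.4, 1.15, 172 and 1.24 at T3 and 103, 151, 128 and 119 at T4. At T2 and T3 replicates 2 and 4 were almost without counts while replicates 1 and 3 held 172 CPM or more, and at T4 all 4 lay between. Its T4 call (-2.67 ± 0.67, adjusted p = 0.0174) was lost with 1 fit over the 16 liver libraries (adjusted p = 0.231), with T4 summed in pairs (adjusted p = 0.108) and without T4 replicate 1 (adjusted p = 0.0507). It was also lost without T4 replicates 1 and 2 (adjusted p = 0.154), with no filter on low counts (adjusted p = 0.05003) and with limma (adjusted p = 0.123). LOC106590538 was a member partly for its T1 levels, so its test stands as a description. It did not pass edgeR's test over the 4 time points (adjusted p = 0.368).

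The 7 members called lower at T2 that are not described elsewhere were LOC106611802 (-1.37), LOC106570873 (-1.27), LOC106609962 (-1.05), LOC106582936 (-1.01), LOC106568124 (-1.02), LOC106608489 (-1.02) and LOC106575662 (-1.02). At T4 the 5 not described in full were cq067 (-1.06), zgc:194887 (-1.18), LOC106608633 (-1.38), LOC100136930 (-1.32) and the gene numbered 106574835 (-1.10). The liver means of zgc:194887 (310 CPM) and LOC100136930 (288 CPM) lay near the lowest kept mean of 258 CPM. Their T1 levels may have helped to make them members, so their tests stand as a description. Without T2 replicate 1, the T2 calls of LOC106609962, LOC106582936, LOC106568124 and LOC106608489 were lost. Without T2 replicates 1 and 3, those of LOC106609962 and LOC106582936 held, and those of LOC106568124 and LOC106608489 were lost. Without T4 replicates 1 and 2, the T4 calls of cq067, LOC100136930 and 106574835 were lost. In edgeR's test over the 4 time points, zgc:194887 (adjusted p = 0.294), LOC100136930 (adjusted p = 0.0587) and LOC106568124 (adjusted p = 0.0678) did not pass. The names in this paragraph complete the calls and were chosen after their values were seen.

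**Figure D4:**
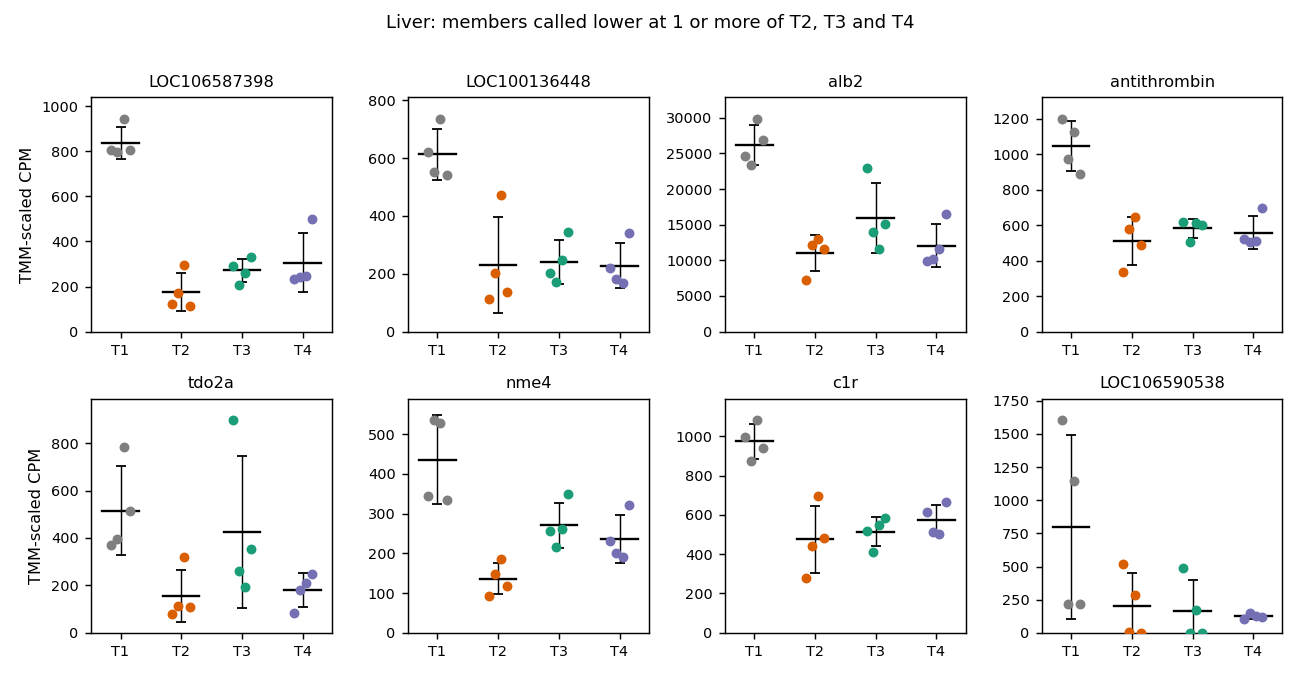
TMM-scaled CPM of 8 members called lower than T1 at 1 or more of T2, T3 and T4. Each point is 1 liver library, black bars are means, error bars are SD (n = 4, cut off at 0 CPM) and each panel has its own axis from 0. LOC106587398, LOC100136448, alb2, antithrombin and c1r lie below T1 at all later times, tdo2a and nme4 overlap T1 at T3 only, and LOC106590538 splits within T1, T2 and T3.

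The members with a known function were grouped by list. For the counts below, 14.9%, 7.49% and 11% of all genes tested were called at T2, T3 and T4. With the adjusted p alone 33.5%, 19.5% and 32.4% passed, in either direction. Shares of all genes with a negative value or past the unadjusted p were not taken for these comparisons. The 12 genes of coagulation and fibrinolysis had mostly negative log2 fold changes. The 200 members as a set also leaned lower at T2 and T4, with medians of -0.17 and -0.27, but not at T3 (0.01). Of all members past the adjusted p, 55 were lower and 22 higher at T2, 33 and 34 at T3, and 65 and 22 at T4. Whether the list leaned more than the members as a set was not tested. At T2, 11 of the 12 had a negative log2 fold change, 1 was called lower and 7 passed the adjusted p alone, all of these lower, and the list's median was -0.61, beside -0.00 over all genes. At T3, 10 were negative and edgeR called 0, with 3 past the adjusted p and 6 past an unadjusted p of 0.05, and the median was -0.31, beside -0.01. The 3 of 12 past the adjusted p at T3 were near the share of all genes. At T4, 11 were negative and edgeR called 0, with 7 past the adjusted p and 8 past the unadjusted, and the median was -0.50, beside 0.06. Without T4 replicates 1 and 2, 10 were negative and 1 passed the adjusted p at T4, with a median of -0.37. The called member was antithrombin, named for its call, the serpin that blocks thrombin. It had 1201, 976, 1123 and 890.1 CPM at T1, 334, 579.6, 646 and 488 at T2, 616, 505, 610.2 and 599 at T3 and 523, 503, 513 and 696 at T4. The T2 call was lost without T2 replicate 1, where 0 of the list were called and 6 passed the adjusted p. It was also lost without T2 replicates 1 and 3, where 7 of the list passed the adjusted p. All later libraries were below T1, with log2 fold changes of -1.05 ± 0.21 (adjusted p = 0.00417), -0.86 ± 0.13 (adjusted p = 0.00157) and -0.91 ± 0.16 (adjusted p = 0.00374) at T2, T3 and T4. Genes that promote and genes that restrain clotting had negative values, among them the prothrombin-like LOC106561958 (-0.69, -0.41 and -0.58), f9a for factor IX (-0.90, -0.59 and -0.67) and proca for protein C (-0.74, -0.34 and -0.57). None of these 3 was called. Fibrinogen gamma, fgg, had 13663, 12733, 12367 and 11444 CPM at T1, 6433, 12689, 17821 and 11244 at T2, 14909, 10431, 9155 and 11670 at T3 and 8697, 5422, 7010.3 and 10624 at T4. Its T2 values spread over the T1 range and beyond, and only T4 lay below it (-0.66 ± 0.21, adjusted p = 0.037).

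Of the 7 complement genes, 1 was called, c1r, a protease that starts the classical pathway. It had 996, 876, 1083 and 941 CPM at T1, 281, 443, 696 and 484 at T2, 516, 413, 547 and 584 at T3 and 615, 511, 505 and 663 at T4. All later libraries were below T1, and the log2 fold change was -1.05 ± 0.24 (adjusted p = 0.00875) at T2, -0.94 ± 0.13 (adjusted p = 0.00118) at T3 and -0.77 ± 0.14 (adjusted p = 0.00443) at T4. Without T2 replicate 1 it was -0.85 and not called at T2. Without T2 replicates 1 and 3 it was -1.06 and called. c9, part of the pore that complement builds, had log2 fold changes of 0.51, 0.90 and 0.32, whereas the complement C3-like LOC106564830 had -0.74, -0.55 and -0.33. Neither was called. The list's median was -0.18 at T2, 0.02 at T3 and -0.18 at T4.

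None of the 7 apolipoprotein and lipid transport genes was called by edgeR at any time point, and at T2, T3 and T4 their medians were -0.09, -0.06 and -0.14. At T2 and T3, 4 of the 7 passed an unadjusted p of 0.05 and 2 the adjusted p, and at T4, 3 passed both. apoc1, a small apolipoprotein of circulating lipoproteins, had -0.38, -0.20 and -0.14. Apolipoprotein A-I, the main protein of high-density lipoprotein, has more than 1 gene among the members. LOC100136573, listed with the synonym apoa1, had 22987, 24768, 25422 and 21801 CPM at T1, 9649, 15078, 20152 and 13320.4 at T2, 20208, 14775, 14799 and 16734 at T3 and 11654, 11343, 12558 and 17925 at T4. All later libraries were below T1, with log2 fold changes of -0.72 ± 0.21 (adjusted p = 0.0258), -0.53 ± 0.12 (adjusted p = 0.0137) and -0.83 ± 0.18 (adjusted p = 0.00849). The entry apoa1 had -0.09, 0.50 and -0.08 and passed the adjusted p at no time point, with its lowest of 0.0509 at T3. The difference between these entries was not tested, and reads shared by near-identical copies were not counted, so both values are uncertain to that extent. apobb.1, a gene of apolipoprotein B, the scaffold of the lipoproteins that carry fat out of the liver, lay above all of T1 at each time point, with 0.89 ± 0.15 (adjusted p = 0.00209), 0.68 ± 0.14 (adjusted p = 0.00813) and 0.57 ± 0.16 (adjusted p = 0.0244), which is under the fold threshold.

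Among 6 carrier and acute phase genes, alb2 and crp were called as given above. The iron carrier gene tfa had 14837, 21653, 23256 and 18934 CPM at T1, 17308, 22098, 18608 and 22629 at T2, 32590.2, 22732, 18587 and 23994 at T3 and 16373, 15427, 18817 and 19405 at T4. The 4 time points overlapped, and the log2 fold change was 0.02 ± 0.18 (adjusted p = 0.949) at T2, 0.30 ± 0.19 (adjusted p = 0.286) at T3 and -0.17 ± 0.18 (adjusted p = 0.486) at T4. The heme carrier gene hpxa and the haemoglobin carrier gene hp were not called either, with -0.20 and -0.39 at T4.

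Of the 9 genes of amino acid and one-carbon metabolism, bhmt and tdo2a were the ones called. The median of the list was 0.10 at T2, 0.25 at T3 and -0.18 at T4. ftcd, an enzyme of histidine breakdown that passes one-carbon units to folate, had 0.16, 0.33 and 0.07. tat, the tyrosine aminotransferase gene, passed the adjusted p alone at T2 (-0.95 ± 0.29, adjusted p = 0.0326) and T4 (-0.72 ± 0.21, adjusted p = 0.0267), both lower. The phenylalanine-4-hydroxylase-like LOC106609449 was at 0.84 ± 0.17 (adjusted p = 0.00645) at T3, also under the fold threshold.

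The list of oestrogen-responsive egg protein genes had 1 member, LOC106573520, described as zona pellucida sperm-binding protein 4-like, a protein family of the egg envelope. It had 10132, 9188, 7725 and 7439.8 CPM at T1, 4438, 7582, 8195 and 5531 at T2, 7389.7, 5201, 3735 and 4740.2 at T3 and 5012, 4249.7, 4618 and 6747 at T4. T2 overlapped T1, and T3 and T4 lay below it. It was not called, with log2 fold changes of -0.44 ± 0.21 (adjusted p = 0.139) at T2, -0.73 ± 0.20 (adjusted p = 0.0263) at T3 and -0.74 ± 0.19 (adjusted p = 0.0154) at T4. shbg, for the plasma carrier of sex steroids, had 0.17 ± 0.19 (adjusted p = 0.525), 0.45 ± 0.16 (adjusted p = 0.0768) and 0.40 ± 0.17 (adjusted p = 0.0987) and was not called. abcg8, a subunit of the transporter that exports sterols into bile, was not called either (-0.30, -0.03 and -0.14).

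**Figure D5:**
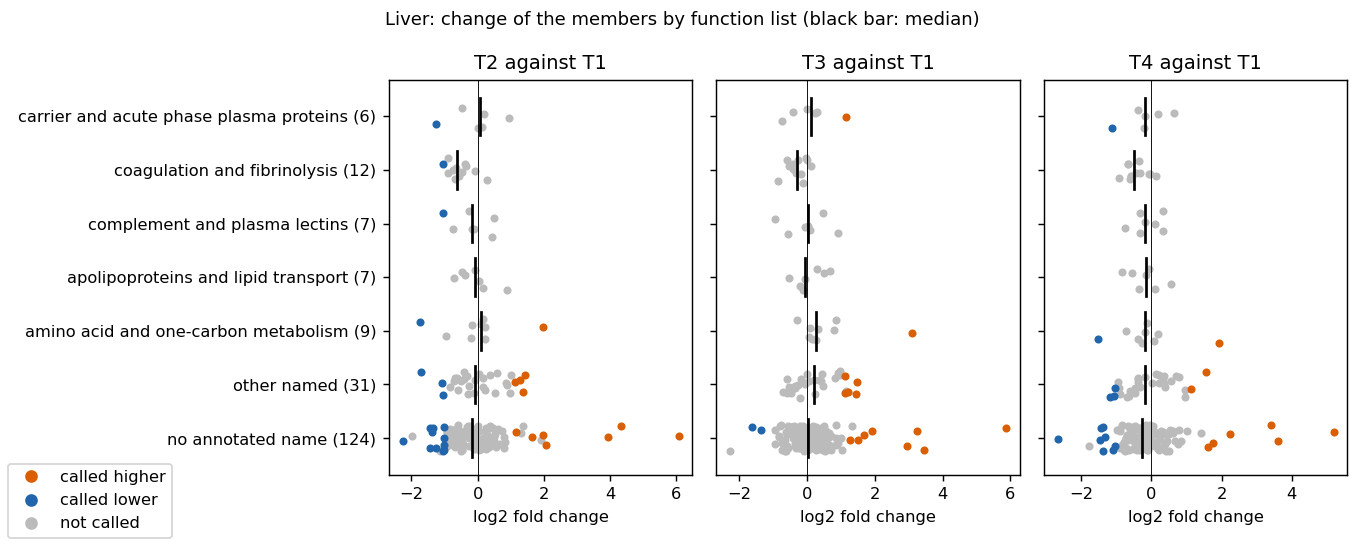
Log2 fold change of the members at T2, T3 and T4 against T1 in liver, grouped by function list, with the number of members in brackets. Each point is 1 gene, coloured by its call, and black bars are list medians. The coagulation list lies mostly below 0, with medians of -0.61, -0.31 and -0.50, where those of all members were -0.17, 0.01 and -0.27. Most calls fall among genes in no function list, which are also most of the members, since only 45 are in a list. The 4 lists with 1 member each are not drawn.

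Of the other 31 named members, 4 were called higher and 3 lower at T2, 5 higher and 0 lower at T3, and 2 higher and 3 lower at T4. Over all genes, 8.21% were called higher and 6.65% lower at T2, 4.09% and 3.39% at T3, and 5.75% and 5.21% at T4. LOC100136417, which carries gapdh as a synonym, a glycolytic enzyme, had 2082, 2372, 2787 and 2326 CPM at T1, 1026, 1182, 1212 and 1222 at T2, 1641, 1321, 1527 and 1896 at T3 and 930.2, 966, 1164 and 1607 at T4. All later libraries were below T1. It was called at T2 (-1.06 ± 0.14, adjusted p = 0.000613) and T4 (-1.04 ± 0.20, adjusted p = 0.00502). Neither call held without the libraries that stood apart, with -0.98 at T2 without T2 replicate 1 and -0.78 at T4 without T4 replicates 1 and 2. selenop2, for the selenium carrier selenoprotein P, was called at T2 (-1.07 ± 0.28, adjusted p = 0.0174), overlapped T1 at T3 (-0.08 ± 0.26, adjusted p = 0.866) and passed the adjusted p alone at T4 (-0.92 ± 0.25, adjusted p = 0.0194). Its T2 log2 fold change was -0.90 and not called without T2 replicate 1. Without T2 replicates 1 and 3 it was -1.12 and called. These genes were named after their values were seen.

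The 124 members with no annotated name gave 7 higher and 11 lower calls at T2, 8 and 2 at T3, and 6 and 8 at T4. All genes gave 8.21% higher and 6.65% lower calls at T2, 4.09% and 3.39% at T3, and 5.75% and 5.21% at T4. Some of the 124 have the highest levels of all members. LOC106605687, first by liver mean, had 28798, 27063, 26493 and 25259 CPM at T1, 22218, 27150, 28659.7 and 26139.9 at T2, 34259.9, 31706, 31382 and 28169.7 at T3 and 23112, 20902, 26892 and 26957 at T4, with log2 fold changes of -0.06, 0.21 and -0.14. Each later time point overlapped T1, and T3 lay above T4. LOC100136426, the second, ranged from 5678 to 39297 CPM between fish, and its time points overlapped throughout. Of the first 10 by liver mean, only alb2 was called at any time. LOC106608112, LOC106578170, LOC106571178 and LOC106604501 had log2 fold changes of -0.48, -0.47, 0.00 and -0.05 at T2, and of -0.32, -0.79, -0.10 and 0.01 at T4.

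Consecutive time points were compared after these results had been seen. Between T3 and T2 edgeR's test called 0 of the 200 members, and the background was 0% of 25486 genes. At an unadjusted p below 0.05, 36 members (18%) passed, beside 12.9% of all genes, and DESeq2 called 1 member among 237 genes. Between T4 and T3, 4 members (2%) were called, against a background of 0.829%, and all were lower. These were bhmt (-1.21 ± 0.25, adjusted p = 0.0459), LOC106605692 (-1.37 ± 0.18, adjusted p = 0.0124), LOC100136583 (-1.27 ± 0.20, adjusted p = 0.0209) and LOC106608633 (-1.65 ± 0.26, adjusted p = 0.0241). LOC106608633 had 1016, 623, 936 and 928 CPM at T3 and 289.8, 202, 206 and 422 at T4, with no overlap. The count of 4 rested on few libraries, since it was 2 without T3 replicate 1, 1 without T3 replicate 3 or 4 or T4 replicate 1 or 3, and 0 without T4 replicate 2 or without both T4 libraries high in leukocyte markers.

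For some members fish of the same time point differed widely. The median coefficient of variation over the 4 libraries was 15.04% at T1, 27.7% at T2, 16.1% at T3 and 14.9% at T4. For 99 members the highest library of a time point was never over 2 times the lowest, and for 10 it exceeded 10 times at some time point. Of these 10, 9 have no annotated name and 1 passed the test over the 4 time points. LOC106566534 had 0.0909, 0.486, 716 and 597 CPM at T3, while its other 12 libraries ran from 121 to 561 CPM. LOC106575496 had 63.4, 416, 122 and 0.471 CPM at T3 and LOC106574392 had 1336, 281, 534 and 1.54, each with 1 library almost without counts. LOC106609923 had 209, 404, 187 and 0.693 CPM at T1, where replicate 4 was nearly empty, and 154 to 447 CPM later. Of these 4, LOC106609923 alone was named by the rule.

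Some members are neighbours in the genome. In the gene order of Ssal_v3.1, 25 of the 185 placed members lay within 2 gene positions of another, in 12 runs. A run holds LOC106608633 and LOC100136583, both lower at T4 than at T3. Another run holds apoc1 and LOC106577505, of which only LOC106577505 was called at T3. A further run holds f7i and f10, both of the coagulation list, with log2 fold changes of -0.65 and -0.48 at T2. The run of apobb.1 and LOC106571178 had 0.89 and 0.00 at T2. The members of a run thus did not always change together.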

How the data were processed

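Whole liver, brain, pituitary and ovary of the 16 fish were sequenced as strand-specific messenger RNA libraries. Per the study's methods and the submitters' processing notes, the authors mapped reads to ICSASG_v2 with TopHat2 2.1.1, sorted them with SAMtools 1.4, and counted uniquely mapped reads on exons with HTSeq 0.7.2. The deposited table of counts holds 81574 entries and was used as deposited. A second table that the authors deposited holds log2 values of 46064 genes, which matched log2(CPM + 1) of the counts within 3.7e-05. All 64 columns of each table were matched to samples. Because only unique reads were counted, genes with near-identical copies are uncertain.

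Symbols came from the RefSeq table of Ssal_v3.1, another assembly than that of the counts, by gene number. It held 191 of the 200 members. No sequences were used, and coordinates served only to order genes for the neighbour runs.

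Liver T2, T3 and T4 were each compared with T1 by edgeR 4.0.16's quasi-likelihood test (R 4.3.3) with TMM scaling, filterByExpr, the robust option and Benjamini-Hochberg adjustment over all genes that passed the filter. A test over all 4 time points used the 16 liver libraries. The comparisons of T3 with T2 and of T4 with T3, several left-out libraries and the alternatives of the coagulation list and of single called members were added after the data had been seen. Alternatives used DESeq2 1.42.0, limma 3.58.1 on the deposited log2 values, other scalings and other member sets. Replicate numbers came from the labels. The members and the function lists were chosen with earlier results of these data known. The rule for named genes took the 10 members with the highest liver mean, the 5 called members with the largest rise and the 5 with the largest fall at each time point, the 2 highest of each function list, and the edges of the selection. Other genes named in the text were chosen after their values were seen. The fit of T2 against T1 was also run on simulated counts, with the same dispersion for every gene and no library standing apart. That run cannot show how the fits behave with the spread of these libraries. Tables were made with Python 3.11.15. The liver libraries of 20638203 to 34934085 counts give small counting error at these levels, so the spread between fish limits precision.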

Additional observations from a re-analysis of the deposited data

Results flagged for a closer look

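Single libraries that lay far from the other 3 of their time point were sought in 164 groups of 4 values, and 12 passed Dixon's 95% limit, where chance gives about 1 in 20. Among the members with the highest means, LOC106608112 had 11171 CPM in T2 replicate 4 and LOC106571178 had 10366 CPM in T3 replicate 3. Among members called higher, LOC106611534 stood apart with 1294 CPM in T2 replicate 2, LOC106580183 with 374 CPM in T1 replicate 2, and bhmt with 5412 CPM in T4 replicate 3. Among members called lower, LOC106587398 stood apart with 945 CPM in T1 replicate 3 and with 501 CPM in T4 replicate 4, and tdo2a with 320.2 CPM in T2 replicate 3. At the edges of the rule, the gene numbered 106560507 had 202 CPM in T1 replicate 1, and LOC106582765 had 1253 CPM in T2 replicate 3 and 442 CPM in T4 replicate 1. The summed CPM of endothelial, stellate and fibroblast markers was 970 in T2 replicate 1.

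Levels at T4 differed from those at T3 for 4 members by edgeR's test of that difference. The log2 fold change of T4 over T3 was -1.21 for bhmt, -1.37 for LOC106605692, -1.27 for LOC100136583 and -1.65 for LOC106608633, and for all 4 no T4 library reached the T3 range.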

How the results depend on the processing

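The counts of 31, 18 and 22 members called at T2, T3 and T4 stayed within 1.5 times under other scalings (RLE, or TMM from non-member genes), DESeq2, the exact test, 1 fit over the 16 libraries, no filter on low counts, limma on the deposited log2 values, no robust option, and member sets by a ratio of 10 or 50, by T1 liver levels or by TMM-scaled CPM. With limma the calls were 14 higher and 7 lower at T2 and 13 higher and 7 lower at T4. Without the fold threshold the counts were 77, 67 and 87. With the 100 highest members they were 12, 7 and 10, and with the 400 highest 64, 41 and 50, as the number of members sets. Leaving out 1 library gave between 25 and 39 calls at T2, between 15 and 22 at T3, and between 18 and 33 at T4. It gave 77 to 117 members in the test over 4 time points (97 with all), where DESeq2 gave 123, and 74 passed without T4 replicates 1 and 2. For T4 against T3 it gave 0 to 6 calls (4 with all), and 0 without both T4 libraries high in leukocyte markers. For T3 against T2 it gave 0 throughout. The share of counts without the 10 highest members was 35.0% at T1, 33.9% at T2, 36.4% at T3 and 33.8% at T4. With 1 library left out the members' share was within 46.2% and 47.1% at T1, 43.2% and 46.1% at T2, 46.2% and 47.97% at T3, and 44.2% and 45.2% at T4. No call of a member named by the rule changed direction under any of these alternatives. Each liver library held at least 20638203 counts, so depth limits these results less than the spread between fish.

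Replicate numbers did not pair the samples, since each time point had its own fish. Deviations of same-numbered libraries correlated at -0.25 to 0.15 over 27158 genes. With the replicate block 35, 17 and 25 members were called at T2, T3 and T4, and 87 passed the test over 4 time points. The T4 call of LOC106590538 was lost with the block (adjusted p = 0.0905).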
